A study of Rattus norvegicus with 15 samples.

Results

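Circular RNAs (circRNAs) of whole blood were compared between rats sampled 1 h after modelling of deep venous thrombosis (DVT) and a sham group. Of the 43472 circRNAs in the deposited table, 7928 (18.2%) were above 0 in at least 3 of the 6 libraries of these groups, and these 7928 are the members described here. The animals were male rats of the outbred Sprague-Dawley strain, 6 to 8 weeks old and weighing 250 to 300 g. The sham group carries the time 0 h, the other group the time 1 h, and each has 3 libraries, all with the title prefix 180640A&B. The sources used here do not say how the thrombosis was made or what the sham rats underwent. No label ties the 3 libraries of a group to separate rats, so p-values measure only the spread between these samples, which may be technical. Another 9 libraries of the series, from 6 h, 12 h and 72 h (3 d) after modelling, helped to estimate the spread and gave an abundance scale that does not use the compared groups. Those of 6 h and 12 h carry a title prefix ending in C instead, which the labels do not explain.

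A circRNA is made when a splice donor joins an acceptor upstream of it, which closes the exons between them into a ring without free ends. Such rings resist exonucleases and can outlast the linear transcripts of their gene, and they are plentiful in platelets and in maturing red cells, which carry RNA but no nucleus. A venous thrombus is built of fibrin, red cells, platelets and leukocytes, so blood drawn soon after clotting begins can change in its mix of cells as well as in RNA per cell. In whole blood, fewer cells of a type and less RNA per cell cannot be told apart. The table identifies circles by running numbers and gives no host gene, position or sequence for them. Circles are therefore named here by that number, blood cell markers could not be checked, and no sequence is shown.

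Levels are in SRPBM: the reads that cross a circle's back-splice, per 1e9 reads mapped in that library. In each library all listed values were multiples of 1 step (100% whole within 0.01 read), which gave 66.0 to 88.8 M mapped reads for the 6 libraries (M for 1e6) and the reads behind each value. The smallest value listed stood for 2 reads, so a value of 0 is given as listed at 0 and not as absence. Sham replicate 2 and 1 h replicate 1 stood apart. They listed 2958 and 2551 circRNAs, against 9583 to 15366 in the other 4 libraries, with 201519 and 118629 back-spliced reads in all against 657077 to 1781333. Each result is given with all 6 libraries and without this pair.

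Detection of the members followed their abundance, and in the low-detection pair it fell away for all but the most abundant. Members were sorted into 6 abundance classes by their mean SRPBM over the 9 libraries of the other times. In the highest class, at 2000 SRPBM and over (198 members), 98.5% were listed in sham replicate 2 and 93.4% in 1 h replicate 1, against 99.5% to 100% in the other 4 libraries. From 500 to 2000 SRPBM (725 members) the shares were 72.1% and 68.3%, against 99.3% to 99.9%. From 200 to 500 SRPBM (1309 members) they were 39.9% and 37.8%, against 96.9% to 99.5%. Below 50 SRPBM (2198 members, of which 97 were listed in no library of the other times) they were 14.1% and 11.1%, against 65.7% to 90.3%. From 50 to 100 SRPBM (1879 members) the members that the pair did list were not thinly covered. There the median listed member had 14 reads in sham replicate 2 and 8 in 1 h replicate 1. The other 4 libraries had 6 to 9 reads. In the same class 16.0% and 13.4% of members were listed in the pair. Among abundant members coverage was thinner in the pair. From 500 to 2000 SRPBM the median listed member had 41 and 23 reads there, against 50 to 93 in the other 4 libraries. At 2000 SRPBM and over it had 128 and 72 reads, against 215.5 to 414.

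**Figure D1:**
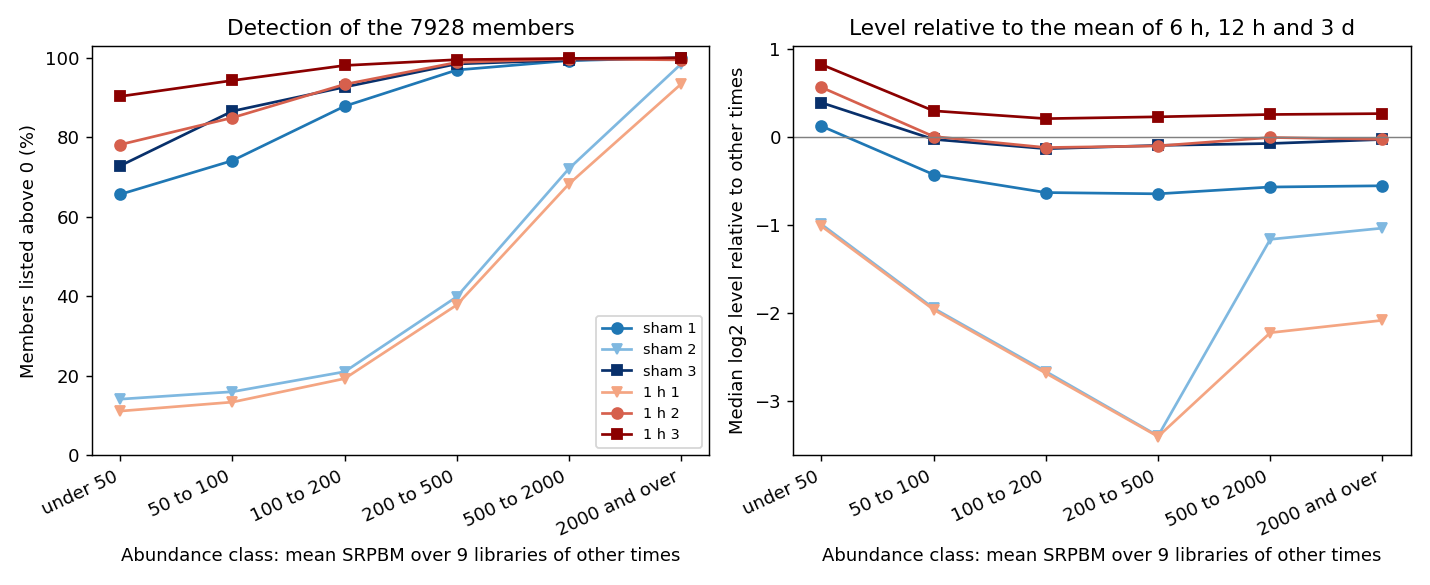
Left, share of members listed above 0 (%) in each of the 6 libraries by abundance class (mean SRPBM over the 9 libraries of 6 h, 12 h and 3 d); right, median log2 level of the members relative to that mean. Triangles mark sham replicate 2 and 1 h replicate 1, which listed 14.1% and 11.1% of members under 50 SRPBM and 98.5% and 93.4% of those at 2000 and over.

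The pair also shaped which members entered. The most common pattern, with 2400 members (30.3%), was listing in sham replicates 1 and 3 and in 1 h replicates 2 and 3 and in neither library of the pair. Listing in all 6 libraries came to 982 members (12.4%). Exactly 3 of the 6 libraries listed 2808 members, at a median listed level of 67.6 SRPBM, and 4459 circRNAs just outside the rule were listed in 2, at 47.5 SRPBM. One-sided patterns were rare: 34 members were listed in all 3 libraries at 1 h and in no sham library, and 15 in all 3 sham libraries and none at 1 h. Members of these patterns passed the rule through 1 group only and had to differ, so their number supports nothing. At the other times 3218 members were listed in all 9 libraries.

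A few circles held most of the members' signal. CBT15_circR_5185 was listed in every library, at 1.54, 1.07 and 2.56 M SRPBM in sham replicates 1 to 3 and at 0.656, 2.54 and 1.69 M at 1 h. The groups overlapped, with 1 h replicate 1 the lowest, and the log2 change was -0.19 (SE 0.14, limma adjusted p = 1). CBT15_circR_5191 was all or none, at 9.15, 0 and 15.2 M SRPBM in sham and 0, 0 and 9.85 M at 1 h. Together this pair of circles made up 84.0% and 87.1% of the members' signal in sham replicates 1 and 3 and 75.7% in 1 h replicate 3, but 36.6% in sham replicate 2, 42.1% in 1 h replicate 1 and 46.8% in 1 h replicate 2, the libraries that list CBT15_circR_5191 at 0.

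The next members by mean level lay far lower. CBT15_circR_22135 had sham values of 85893, 92711 and 35842 SRPBM and 1 h values of 3983, 67354 and 103409, so the lowest and the highest value were both at 1 h. CBT15_circR_19347 ran from 32690 to 81531 SRPBM in sham (41068 in replicate 1) and stood at 19410, 77925 and 91587 at 1 h. For CBT15_circR_9992 the sham libraries gave 52418, 70816 and 23326 SRPBM and the 1 h libraries 20488, 66512 and 95088. In each of these 3 circles the lowest of the 6 values came from 1 h replicate 1, the highest from 1 h replicate 3, and the groups overlapped. None passed the limma test with all 6 libraries (adjusted p = 1 each) or without the low-detection pair (0.901, 0.874 and 0.281). These values rest on 292 to 9184 reads each, so counting error is small beside the differences between libraries of a group.

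Measured against their own mean over the other times, the median member of a class differed from library to library. Single members spread widely around these medians. In the highest class the median member stood at 0.682 of that mean in sham replicate 1, 0.489 in sham replicate 2 and 0.982 in sham replicate 3. At 1 h it stood at 0.236, 0.983 and 1.20 in replicates 1, 2 and 3. The 1 h group thus held both the lowest and the highest library, and sham replicate 3 and 1 h replicate 2 were alike. From 500 to 2000 SRPBM the order was the same, with 0.675, 0.447 and 0.951 in sham and 0.215, 0.998 and 1.20 at 1 h. There 27.9% of members in sham replicate 2 and 31.7% in 1 h replicate 1 were listed at 0, which lowers the medians of these libraries.

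With all 6 libraries the median log2 change, 1 h against sham, was 0.25 over the members and 0.11 over all 16767 circRNAs tested. By class it ran from 0.33 under 50 SRPBM to 0.06 at 500 to 2000 and -0.04 at 2000 and over. Without the low-detection pair the median was 0.48 over the members and 0.29 over all 16593 tested, and it hardly depended on abundance, at 0.52, 0.45, 0.47, 0.46, 0.49 and 0.46 from the lowest to the highest class. A median of 0.46 in the highest class is a 1.38-fold difference, and 169 of its 198 members had a change above 0. The size of the shift depended on the scaling: with median-ratio scaling the members' median without the pair was 0.15, with scaling to the total circRNA signal without the 4 highest circles 0.08, and with scaling to the full total 0.91. With the first 2 of these scalings the median of all circRNAs tested was 0.02 and 0. Median-ratio scaling levels the circRNAs listed in every library, so a small median there follows from its construction. Scaling to a total evens out the sums of libraries and does not fix the median. Why the median was also small with the total without the 4 highest circles was not tested. A difference of scale between libraries and a broad shift at 1 h cannot be told apart. The median also moved with single libraries. With all 6 libraries the members' median was -0.24 without sham replicate 2, -0.18 without 1 h replicate 3, -0.04 without 1 h replicate 2, 0.59 without sham replicate 3 and 0.92 without 1 h replicate 1. Without the low-detection pair it was 0.12 when sham replicate 1 was left out as well, and 0.37 to 0.65 when another was. The middle range of the changes narrowed with abundance, from -0.30 to 1.11 (first to last quartile) under 50 SRPBM to 0.19 to 0.76 at 2000 and over.

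**Figure D2:**
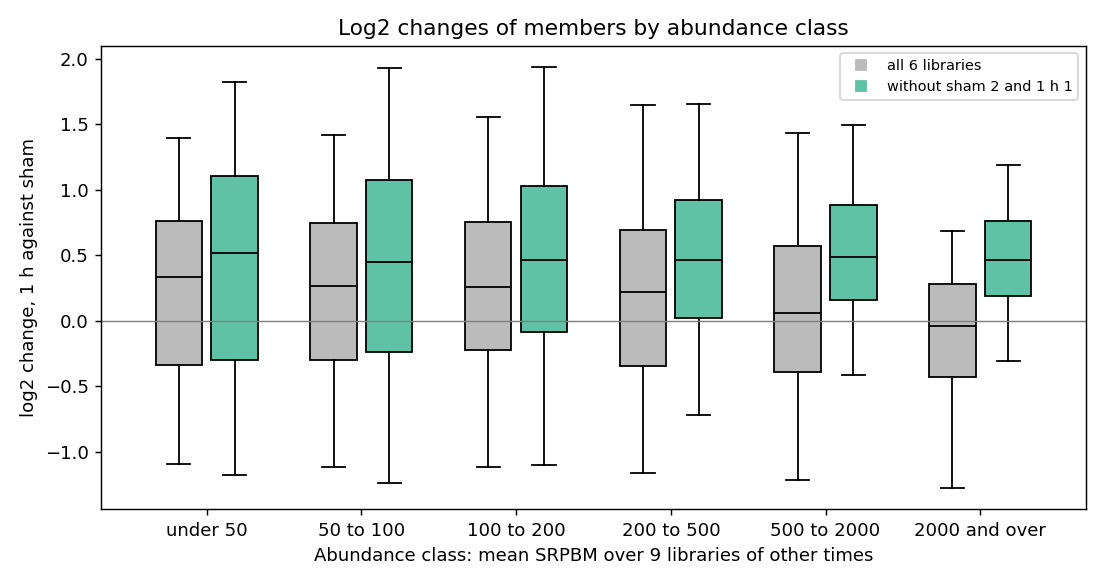
Log2 change of members, 1 h against sham, by abundance class (mean SRPBM over 9 libraries of other times), with all 6 libraries (grey) and without sham replicate 2 and 1 h replicate 1 (green). Boxes span the quartiles, lines mark medians and whiskers run from the 5th to the 95th percentile. The grey medians fall from 0.33 to -0.04 with abundance and the green ones stay between 0.45 and 0.52.

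Libraries of a group were in several cases no closer to each other than to libraries of the other group. The spread between 2 libraries was taken as the median absolute log2 difference of members around the pair's own median, over members listed in both, so that scale drops out. In the highest class it was 0.23 between 1 h replicates 2 and 3, the closest pair of the 15. Sham replicates 1 and 2 differed by 0.58, less than the 0.68 to 0.88 between sham replicate 2 and the 1 h libraries. Between sham replicates 1 and 3 the spread was 0.67, above the 0.34 between sham replicate 1 and 1 h replicate 3, the 0.39 between sham replicate 1 and 1 h replicate 2, and the 0.40 and 0.55 between sham replicate 3 and 1 h replicates 2 and 3. Counting error alone gives 0.07 to 0.09 for the pairs named here without sham replicate 2, and 0.10 to 0.15 for those with it. The largest spread, 1.35, lay between sham replicate 3 and 1 h replicate 1. From 500 to 2000 SRPBM the picture was the same, with 0.31 between 1 h replicates 2 and 3 and 0.74 between sham replicates 1 and 3. Under 50 SRPBM the 15 pairs lay between 0.69 and 0.96, with 0.46 to 0.69 from counting alone. There sham replicates 1 and 3, at 0.74 against 0.69, were nearest to counting error, and 1 h replicates 2 and 3 were at 0.79 against 0.61. Spearman correlations across members of the highest class told the same, at 0.89 between 1 h replicates 2 and 3, 0.79 between sham replicates 1 and 2, 0.50 between sham replicates 1 and 3, and 0.28 between sham replicates 2 and 3 (198 members, which are not independent replicates).

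**Figure D3:**
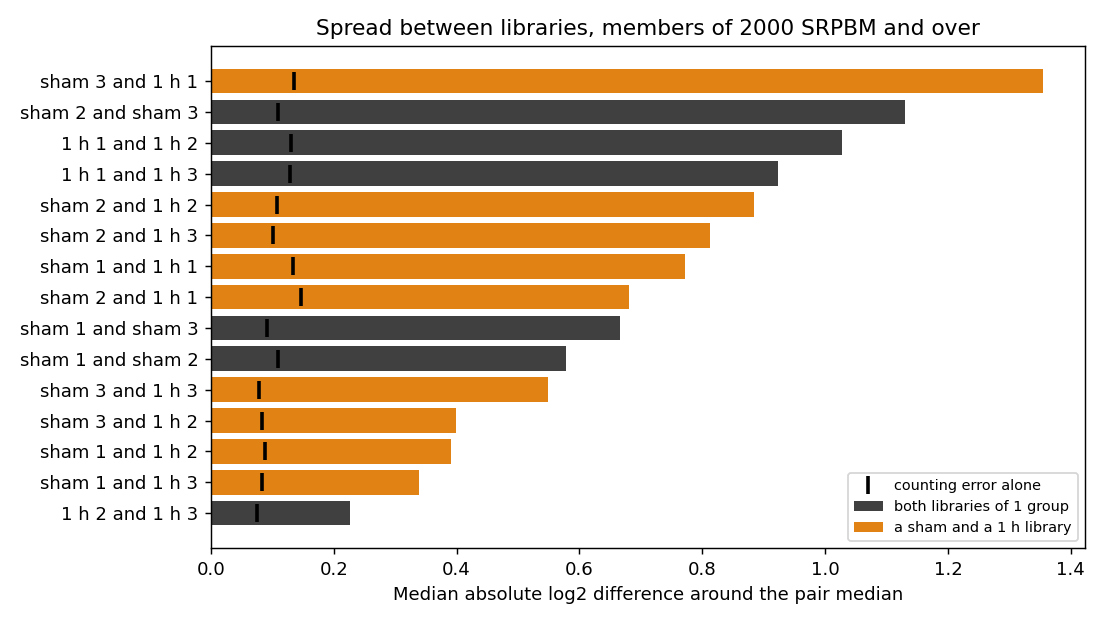
Median absolute log2 difference (x axis) between each pair of the 6 libraries around the pair's own median, over members of 2000 SRPBM and over listed in both. Dark bars join libraries of 1 group, orange bars a sham and a 1 h library, and black ticks give the value from counting error alone. The pair of 1 h replicates 2 and 3 is lowest at 0.23, while sham replicates 1 and 3, at 0.67, lie above 4 of the pairs that cross groups.

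Whether the change of a member was repeated in separate libraries was asked with differences that share no library. The difference of 1 h replicate 2 from sham replicate 1 and that of 1 h replicate 3 from sham replicate 3 had a Pearson r of -0.02 across the 7928 members. With the sham libraries swapped, r was 0.06. By class, r lay between -0.03 and 0.02 in the first pairing and between 0.02 and 0.14 in the second, and it was 0.00 and 0.08 in the highest class. These values are a description across circRNAs, which share depth and library. Across all members the change in 1 pair of libraries therefore had little linear relation to the change in the other. In the highest class r can depend heavily on 1 member, CBT15_circR_5191. It stood at 9.15 and 15.2 M SRPBM in sham replicates 1 and 3 and at 0 in 1 h replicate 2. The r of that class therefore says little about its other members.

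Single members were tested with limma on log2(SRPBM + 23.2), with p-values adjusted over all circRNAs tested. With all 6 libraries, 3 members passed an adjusted p under 0.05, where 0.0239% of the 16767 circRNAs tested passed and 0.0378% of the members. Of these, 1 was higher and 2 were lower, against 0.0119% of all tested in each direction. In all, 255 members (3.22%) had an unadjusted p under 0.05, against 3.41% of all tested. Groups did not overlap for 185 members higher at 1 h (2.33%) and 93 lower (1.17%), against 1.1% and 0.555% of all tested. CircRNAs outside the members are listed in at most 2 of the 6 libraries and cannot separate 3 from 3, so the higher share is set by the rule.

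CBT15_circR_40191 rose. Sham replicates 1 and 2 list it at 0 and sham replicate 3 at 615 SRPBM, and the 1 h values were 805, 2088 and 3119 SRPBM, with 53 reads in the listed sham library and 59, 176 and 277 at 1 h. Every 1 h value lay above the highest sham value, and the low-detection pair followed its groups. The log2 change was 4.66 (SE 0.86, limma adjusted p = 0.00196), and 4.40 without the pair (SE 0.58, adjusted p = 5.55e-09). At the other times it was listed in all 9 libraries, at 769.7 to 2802 SRPBM. Its call was lost in 6 of 18 alternatives, among them without sham replicate 1 (adjusted p = 0.0829) and without 1 h replicate 3 (0.0553), and with a spread not tied to abundance (0.517). Without the low-detection pair it was lost in 6 of 14 alternatives: without sham replicate 1 (limma adjusted p = 0.213), with that spread (0.422), with a robust fit of the spread (0.457), with a pseudocount of 1 SRPBM (0.187), with no filter (0.351) and with only the members tested (0.0846).

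CBT15_circR_2054 was also called, as lower at 1 h. Its sham values were 621, 878 and 371 SRPBM, from 55, 58 and 32 reads, while each 1 h library lists it at 0 (limma adjusted p = 0.0143, and 0.0495 without the low-detection pair). The groups did not overlap, and sham replicate 2 gave the highest value. This member met the listing rule through the sham libraries alone, so it had to differ in this direction, and its test adds no support. At the other times 3 of 9 libraries listed it, at 91.9 to 253 SRPBM. Without any single sham library the call was lost (adjusted p = 0.0796, 0.143 and 0.0852), as it was without 1 h replicate 2 (0.0515) or replicate 3 (0.106).

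The other member called lower was CBT15_circR_5191 (log2 change -6.40, SE 1.24, limma adjusted p = 0.00334), whose groups overlapped. The call came from 2 of 3 libraries listed at 0 at 1 h against 1 of 3 in sham. Where it was listed, its 1 h value of 9.85 M SRPBM lay between the sham values of 9.15 and 15.2 M. The call was lost without sham replicate 3 (adjusted p = 0.961) or 1 h replicate 1 (0.650), and with median-ratio scaling (1). It was also lost with a spread not tied to abundance (SE 4.86) and with a robust fit of the spread (SE 6.91). Without the low-detection pair these last settings ended its call too (limma adjusted p = 0.747 and 0.899). Of the members higher at 1 h that did not pass, CBT15_circR_31009 had the smallest p. Its sham values were 1602, 0 and 858 SRPBM and its 1 h values 2469, 3476 and 2995 SRPBM, so the groups did not overlap (log2 change 3.21, SE 0.82, adjusted p = 0.204). Without the low-detection pair, which removes the sham value of 0, its change was 1.44 (SE 0.50, adjusted p = 0.395).

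**Figure D4:**
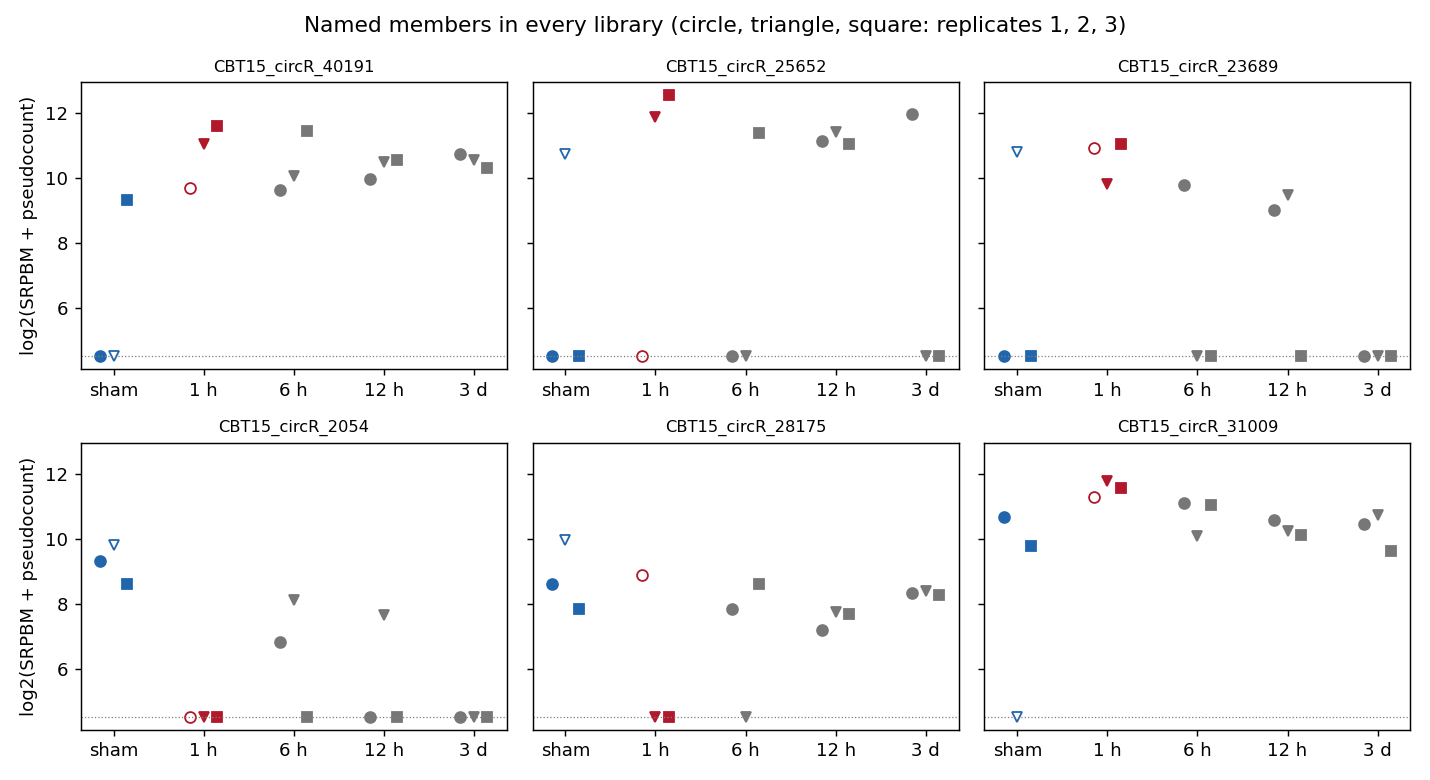
Level, as log2(SRPBM + pseudocount), of 6 named members in each library of the 5 groups; blue is sham, red 1 h and grey the other times. Open symbols mark sham replicate 2 and 1 h replicate 1, and the dotted line marks a value listed at 0. CBT15_circR_40191 lies above its highest sham value in all 3 libraries at 1 h, while CBT15_circR_25652 and CBT15_circR_23689 are listed in sham replicate 2 and at 0 in the other sham libraries.

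Without the low-detection pair, 25 members passed, 22 higher and 3 lower at 1 h (0.316% of 7906 members tested), where 0.223% of the 16593 circRNAs tested passed, 0.199% higher and 0.0241% lower. An unadjusted p under 0.05 was reached by 593 members (7.5%), against 6.77% of all tested. By abundance class, the 22 higher members comprised 12 of 1309 tested at 200 to 500 SRPBM and 8 of 725 at 500 to 2000. Another was 1 of 1878 at 50 to 100 and the last 1 of 1619 at 100 to 200. None of the 22 was under 50 SRPBM or at 2000 and over. From the lowest to the highest class, 72 of 2177, 81 of 1878, 148 of 1619, 137 of 1309, 113 of 725 and 42 of 198 had an unadjusted limma p under 0.05. That share rose with abundance. The 3 called lower were CBT15_circR_5191 (log2 change -9.61, limma adjusted p = 4.24e-07, groups overlapping), CBT15_circR_2054 and CBT15_circR_28175. Groups of 2 did not overlap for 2414 members higher (30.5%) and 574 lower (7.26%), against 19.8% and 5.45% of all tested. CircRNAs outside the members are listed in at most 2 of the 6 libraries. They can separate these groups only if both libraries of 1 group list them, so the higher share is partly set by the rule. Groups of 2 also separate more easily than groups of 3, and the members' median of 0.48 tilts the counts towards higher. With median-ratio scaling 8 members passed, 6 higher and 2 lower, 7 of them among the 25, where 12 of the 16593 circRNAs tested passed. Leaving out a further library gave 17 without sham replicate 1, 8 without sham replicate 3, 9 without 1 h replicate 2 and 5 without 1 h replicate 3. Of these, 5, 6, 7 and 4 were among the 25. These are fits in which the lone library is assumed to vary like the other groups. When limma's spread was not tied to abundance, 0 members passed and 1 of the 16593 circRNAs tested, and 463 members had an unadjusted p under 0.05.

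CBT15_circR_25652 rose most among these. It was listed at 0 in sham replicates 1 and 3 and at 3773 and 5979 SRPBM in 1 h replicates 2 and 3, from 318 and 531 reads (limma adjusted p = 2.74e-12). In the low-detection pair the order was the opposite, with 1681 SRPBM in sham replicate 2 and 0 in 1 h replicate 1, and with all 6 libraries its adjusted p was 1. It was on or off at the other times too, listed in 5 of 9 libraries at 2089 to 4001 SRPBM. Its call without the pair was lost with a spread not tied to abundance (limma adjusted p = 0.422). It was also lost with a robust fit of the spread (0.651), a pseudocount of 1 SRPBM (0.314) and no filter (0.351). Testing only the members (0.126) or leaving out sham replicate 3 as well ended it too.

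CBT15_circR_23689 rose from 0 in sham replicates 1 and 3 to 878 and 2117 SRPBM in 1 h replicates 2 and 3 (limma adjusted p = 5.75e-05). In the pair left out it was at 1787 SRPBM in sham replicate 2 and 1951 in 1 h replicate 1, and with all 6 libraries its adjusted p was 0.204. Thus all 3 libraries at 1 h and 1 of 3 in sham listed it. At the other times it was listed in 3 of 9 libraries. Its call was lost without sham replicate 1 (adjusted p = 0.0707), sham replicate 3 (0.151) or 1 h replicate 3 (0.373).

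In the lower direction CBT15_circR_28175 fell from 372 and 209 SRPBM in sham replicates 1 and 3 to 0 in 1 h replicates 2 and 3 (limma adjusted p = 0.0111). In the pair left out it was at 984 SRPBM in sham replicate 2 and at 450 in 1 h replicate 1, so with all 6 libraries the groups overlapped (adjusted p = 1). At the other times 8 of 9 libraries listed it, at 123 to 366 SRPBM. The call was lost without any 1 of the 4 libraries (adjusted p = 0.157 to 0.373). CBT15_circR_2054, described above, also passed without the pair and lost its call without any 1 of the 4 (adjusted p = 0.304 to 0.676) and with median-ratio scaling (0.0757).

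The pair left out holds values of the 25 called members that this fit did not use, though the listing rule did use them. Of the 22 called higher, 6 were higher in 1 h replicate 1 than in sham replicate 2, 13 were lower and 3 were listed at 0 in both. Over all 2232 members at 200 SRPBM and above, 21.4% were higher in 1 h replicate 1, 47.8% lower and 30.7% at 0 in both. In 9 of the 22 (40.9%), sham replicate 2 lay above at least 1 of 1 h replicates 2 and 3, against 22.8% of the 2232, and in 5 it lay above both. Of the 3 called lower, 2 were lower in 1 h replicate 1 than in sham replicate 2 and 1 was at 0 in both. Among the 22, both sham replicates 1 and 3 were at 0 for 6, and 1 of them was at 0 for 10, so for these the size of the log2 change depends on the pseudocount. Those 6 met the listing rule only because the pair listed them. The counts in the pair are therefore partly set by the rule.

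**Figure D5:**
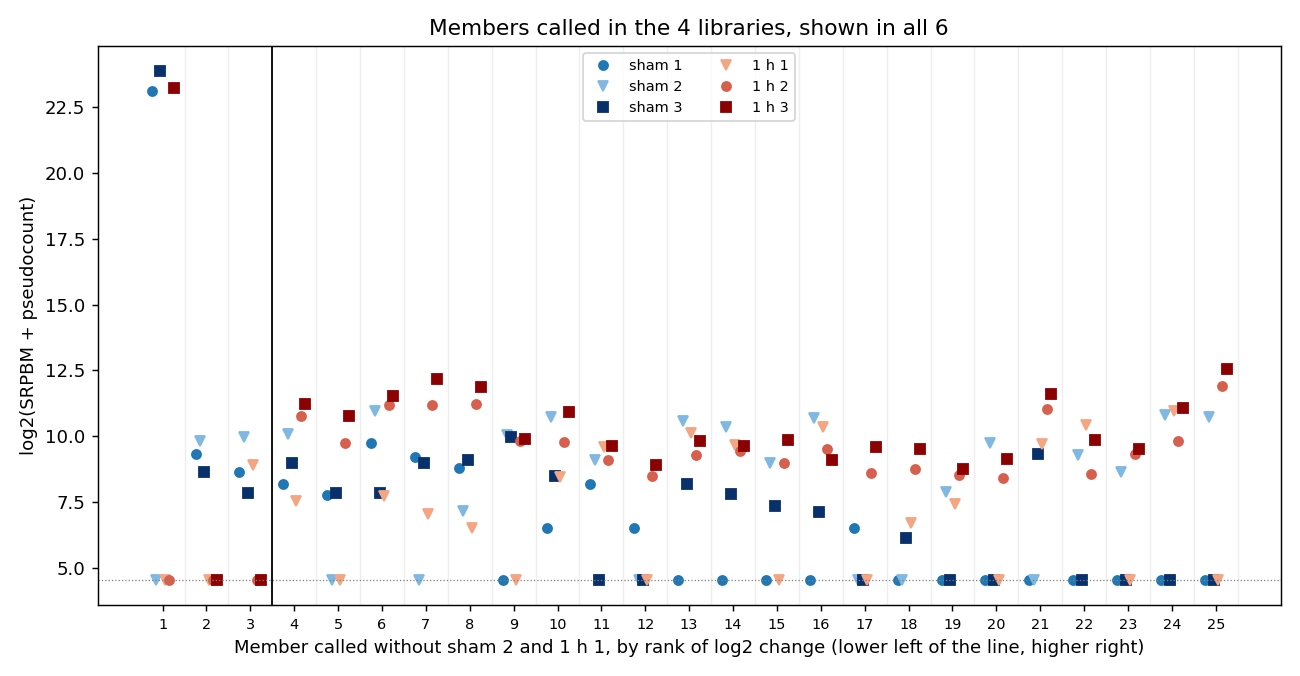
Level, as log2(SRPBM + pseudocount), in each of the 6 libraries of the 25 members called without sham replicate 2 and 1 h replicate 1 (triangles), ordered by log2 change; the 3 left of the black line were lower at 1 h and the 22 right of it higher. The dotted line marks values listed at 0. In 13 of the 22 the pale red triangle (1 h replicate 1) lies below the pale blue one (sham replicate 2).

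In each abundance class, the member with the smallest p that missed the threshold without the pair shows what went uncalled. From 200 to 500 SRPBM, CBT15_circR_19590 was at 778 and 0 SRPBM in sham replicates 1 and 3 and at 1803 and 1689 in 1 h replicates 2 and 3 (limma adjusted p = 0.0536), with 1120.5 in sham replicate 2 and 0 in 1 h replicate 1. From 500 to 2000 SRPBM, CBT15_circR_42581 was at 203 and 429 against 1234 and 1655 (adjusted p = 0.104) and at 0 in both libraries of the low-detection pair. At 2000 SRPBM and over, CBT15_circR_28177 was at 3249 and 1972 SRPBM in sham replicates 1 and 3 and at 1792 and 327 in 1 h replicates 2 and 3 (log2 change -1.68, SE 0.47, adjusted p = 0.128). Its values in the pair were 4209 SRPBM in sham replicate 2 and 3192 in 1 h replicate 1, and 3192 lies within the sham range. The class as a whole was lower in 1 h replicate 1 than in sham replicate 2 (median log2 difference -1.15). The order of the pair therefore adds no support for a change of this member. With median-ratio scaling it passed without the pair (adjusted p = 0.0344).

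Among less abundant members, CBT15_circR_36001 (50 to 100 SRPBM) had values of 123, 320 and 372 SRPBM at 1 h and 0 in each sham library, from 9, 27 and 33 reads (limma adjusted p = 0.406 with all 6 libraries and 0.0732 without the pair). It met the listing rule through the 1 h libraries alone, which fixed the direction, so these p-values support nothing. CBT15_circR_41184 (100 to 200 SRPBM) had sham values of 33.8, 651 and 0 SRPBM and 1 h values of 259, 380 and 495 (limma adjusted p = 1 and 0.0645). CBT15_circR_22296 (under 50 SRPBM) was listed in sham replicate 2 alone of the sham libraries, at 303 SRPBM, and stood at 218, 249 and 315 at 1 h (limma adjusted p = 1 and 0.234). In both of the last, sham replicate 2 was among the highest values of the 6.

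The precision of the comparison set what could be seen. The median SE of a log2 change was 0.97 over the members with all 6 libraries and 0.92 without the pair. It was 0.45 in the highest class without the pair, against 0.69 with all 6 libraries. In that class the 95% interval of the change lay within a 2-fold change in both directions for 22 of 198 members. For the rest of the class a 2-fold difference between 1 h and sham was not excluded, whether or not the test was passed.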

How the data were processed

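Whole-blood RNA of 15 libraries in 5 groups of 3 had been sequenced in paired-end reads of 150 bases, per the labels' protocols. The deposited values are a signal, SRPBM, made by the authors with find_circ, per the file's name; Bowtie 0.12.2 and the genome build Rnor_6.0 are named, with no role, per the submitters' processing notes. How many reads a call needed was not stated in the labels.

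Groups and replicate numbers came from the sample titles. A circRNA was tested if at least 3 of 15 libraries (13 without the low-detection pair) listed it. The model was limma's (version 3.58.1, R 4.3.3; moderated spread following abundance) on log2(SRPBM + 23.2), where 23.2 is the median over libraries of the smallest listed value. All groups entered 1 fit, and p-values were adjusted by Benjamini-Hochberg at 0.05. The SEs borrow the spread of circRNAs of like abundance and can understate that of a single one, and fold changes of low circRNAs are understated. Precision follows the reads behind a value, and counting error covers sampling only. The fit was also run on simulated data with known changes. There values of 0 were equally likely in every library, so the run does not show how the fit behaves with low-detection libraries.

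Named members are, in each fit, those past the threshold with groups that do not overlap, up to 2 per direction by size of change, then the smallest p; the 5 of highest mean; and per class the smallest p not called. Identifiers carry no gene, so no list of genes was used. The members, classes and rules were chosen with earlier results of these data known. Alternatives were other pseudocounts, filters, scalings, spread models, a replicate block and libraries left out.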

Additional observations from a re-analysis of the deposited data

How the results depend on the processing

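With all 6 libraries 3 members were called, and the count was 0 with a pseudocount of 1 SRPBM or without a trend of the spread (217 and 329 members at an unadjusted limma p under 0.05). It was 1 with a pseudocount 10 times larger, with only the members tested and in a fit of only the sham and 1 h libraries, 7 with no filter, 10 when scaled to total circRNA signal (7 higher, 3 lower), and 25 without sham replicate 2 and 1 h replicate 1. Over all circRNAs tested, the larger pseudocount called 2 of 16767 and no filter 10 of 43472. The test of only the members and the fit of only the sham and 1 h libraries called 1 of 7928 each. Scaling to the total called 14 of 16767, and the fit without the low-detection pair 37 of 16593. Leaving out 1 library gave 1 (without sham replicate 3, 1 of 15986 tested) to 11 (without 1 h replicate 1, 19 of 16693). It gave 5 without sham replicate 2 (6 of 16666). Without the low-detection pair 25 were called (22 higher), and the count was 0 with a pseudocount of 1 SRPBM, no filter, only the members tested or no trend (490, 664, 635 and 463 at an unadjusted p under 0.05), 39 with a pseudocount 10 times larger (37 higher, 2 lower, 21 shared with the 25), and 8 with median-ratio scaling or with scaling to the total without the 4 highest circRNAs, an alternative chosen after seeing the data (6 higher, 2 lower in both). Leaving out a further library gave 5 to 17. Over all circRNAs tested without the pair, the larger pseudocount called 58 of 16593. Median-ratio scaling and scaling to the total without the 4 highest called 12 of 16593 each. With no filter 1 of 43472 was called, and with no trend 1 of 16593. The cause of these changes in count was not tested.

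Deviations of same-numbered libraries from their group means had a Pearson r of -0.11, -0.18 and 0.12 for numbers 1, 2 and 3 (16767 circRNAs). The largest r, 0.32, was that of sham replicate 2 with 1 h replicate 1, the low-detection pair. Since the group means include that pair, this check cannot show what a shared number marks. With a replicate block limma called 3 members with all 6 libraries, where 6 of the 16767 circRNAs tested passed. It called 32 without the pair, where 49 of 16593 passed and sham and 1 h share a single number. There it ended the call of CBT15_circR_28175 (adjusted p = 0.0634).

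The median log2 change under 50 SRPBM was 1.30 with a pseudocount of 1 SRPBM. In the other classes it moved by less than the spread between libraries in all alternatives run. That spread includes the low-detection pair and is wide (2.11 log2 units at 200 to 500 SRPBM), so it does not show that the medians are stable. At 200 to 500 SRPBM the median was -0.51 without sham replicate 2 and 1.15 without 1 h replicate 1. At 2000 and over it was -0.48 without 1 h replicate 3 and 0.70 without 1 h replicate 1. The r between separate pairs of libraries was 0.058 and 0.14 with a pseudocount 10 times larger. Of 18 alternatives with all 6 libraries, the call held in 12 for CBT15_circR_40191 and in 9 for CBT15_circR_2054 and for CBT15_circR_5191. Of 14 without the pair, it held in 8 for CBT15_circR_40191 and CBT15_circR_25652 and 7 for CBT15_circR_23689. It held in 4 for CBT15_circR_28175 and for CBT15_circR_5191 and in 3 for CBT15_circR_2054. The planned count tests were not run, since a check of the file did not accept its values as recovered whole reads. A change under 50 SRPBM rests on few reads (median 4 to 6 where listed, outside the pair).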
